A study of Bos grunniens and Bos grunniens x Bos taurus with 2 samples.

Results

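The genes of glycolysis, of pyruvate entry into the mitochondrion and of hexose and monocarboxylate transport were followed through the cells of yak and cattle-yak testis. They were chosen by symbol, as every annotated hexokinase, phosphofructokinase, aldolase, enolase, pyruvate kinase, lactate dehydrogenase and other enzyme of the pathway, the regulators of fructose 2,6-bisphosphate and pyruvate dehydrogenase, and every numbered SLC2A (hexose carrier) and SLC16A (monocarboxylate carrier) gene. This gave 53 of 26961 features, namely 30 of the 40 enzyme symbols looked for, 10 SLC2A genes and 13 SLC16A genes. *ALDOA*, *GAPDH*, *PGAM1*, *PGAM2*, *LDHA*, *LDHB*, *LDHC*, *LDHAL6A* and *LDHAL6B* carried no symbol in the gene list used for counting and were not analysed here.

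Testis tissue of 1 yak (*Bos grunniens*) and of 1 cattle-yak (*Bos grunniens* x *Bos taurus*, the hybrid of yak and cattle), both past sexual maturity, was profiled with 10x Genomics droplet RNA sequencing. The study's methods describe the yak as a healthy 4-year-old male and do not describe the cattle-yak; in both, frozen tissue was thawed and dissociated with enzymes before loading. With 1 library per animal there was no replicate check and no test was made; all intervals are 95% intervals that cover counting error only, and any difference between the libraries is between these libraries, not between the crosses. Although both libraries are labelled as germ cells, most of their cells carried markers of somatic types.

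The yak library held 11991 barcodes with a median of 2533 UMIs (unique molecular identifiers, 1 per captured RNA molecule) and the cattle-yak library 8930 with a median of 3155, and 24 barcodes occurred in both. The pathway genes took 85461 UMIs, or 0.141% of all, in the yak library and 39758, or 0.0908%, in the cattle-yak library, and 53 and 51 of them had at least 1 UMI. The 24 shared barcodes included 3 cells typed as SPT and 1 cattle-yak germ cell, and none of the other germ cells described here. Levels are given as CPM, the UMIs of a gene in a cell group scaled to a total of 1000000 UMIs, with exact Poisson intervals in brackets. The reads come from the 3′ ends of transcripts, so the CPM of a gene depends on how well its end is annotated, and each gene is compared with itself across cell groups rather than with other genes.

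Glycolysis splits glucose into pyruvate in the cytosol, lactate dehydrogenase and the monocarboxylate carriers (MCTs) let cells exchange lactate, and the pyruvate dehydrogenase complex passes pyruvate to the mitochondrial tricarboxylic acid (TCA) cycle under the brake of the PDK kinases. In the mammalian testis, Sertoli cells are known to feed lactate to spermatocytes and spermatids, while sperm run glycolysis along the tail with testis-specific enzymes such as GAPDHS. *PGK2* and *PDHA2* are intronless, autosomal copies of the X-linked *PGK1* and *PDHA1*, and are known for their use in male germ cells, where the X chromosome is silenced during meiosis.

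Yak germ cells were grouped in 2 ways. The first used the published type of each barcode. It held 84 spermatogonial stem cells (SSC), 486 spermatogonia (SPG), 72 early spermatocytes (Early-SPC), 261 late spermatocytes (Late-SPC) and 224 spermatids (SPT). These cells lay within upper limits on UMIs and genes and were shallow, with median UMIs of 906 in SPT to 1799.5 in Early-SPC. The type names are the authors'. In SSC, 13 endothelial markers summed to 2254 CPM, above the 901 CPM of 17 SPG markers. In SPG, 11 markers of contractile cells summed to 5878 CPM, above the 1665 CPM of the SPG markers. Levels in SSC and in SPG are therefore not read as those of a germ stage alone. The second used germ cells that the authors' table does not hold, many of them above those limits (412 yak and 219 cattle-yak germ-like cells were), clustered here without the pathway genes and called by a gene that leads each cluster. The yak gave a *DMRT1* cluster of 222 cells with 14 of 17 SPG and 15 of 25 early spermatocyte markers raised, a *RAD51AP2* cluster of 99 cells with 23 of 25 early and 8 of 12 late spermatocyte markers, a *CCNA1* cluster of 78 cells with 12 of 12 late spermatocyte markers, and an *HMGB4* cluster of 165 cells with 24 of 24 SPT markers. The raised markers were counted on the whole clusters of 264, 231, 94 and 222 cells. These include 42, 132, 16 and 57 cells of the authors' table, which were then left out. In the 99 cells of the *RAD51AP2* cluster itself, early and late spermatocyte markers summed to 6889 and 5113 CPM. Without the authors' cells, median UMIs ran from 14106 to 36640, so the clusters carry far narrower intervals. As used here, they share no cell with the authors' types, only the animal and the library. In cattle-yak the same steps gave a *DMRT1* cluster of 235 cells (12 of 17 SPG, 19 of 25 early and 6 of 12 late spermatocyte markers), a *RAD51AP2* cluster of 48 cells (24 of 25 early and 3 of 12 late markers) and a *PIWIL1* cluster of 48 cells (15 of 25 early and 9 of 12 late markers), and no cluster led by SPT markers (1 or 2 of 24 raised in each). Median UMIs in that order were 23638, 8310 and 1411. In the *PIWIL1* cluster early and late spermatocyte markers summed to 5984 and 3987 CPM.

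Summed over all 53 genes, the pathway's level was lowest in early spermatocytes and highest in spermatids among the authors' types. It was 999 CPM (847 to 1171) in SSC, 947 (872 to 1027) in SPG, 393 in Early-SPC, 2112 (1984 to 2247) in Late-SPC and 2971 (2770 to 3183) in SPT. In the deep clusters it was 841 CPM in the *DMRT1*, 1428 in the *RAD51AP2*, 2867 in the *CCNA1* and 4413 in the *HMGB4* cluster. Somatic cells of the yak ranged from 469 CPM in B cell-like to 1457 in macrophage-like cells, below both Late-SPC and SPT. Different genes made up the level at each stage: of the 29 genes with at least 50 counts over the deep clusters, 7 were highest in the *DMRT1* cluster, 4 in the *RAD51AP2*, 6 in the *CCNA1* and 12 in the *HMGB4* cluster. Of the 13 with 50 counts over the authors' types, *PKM* was highest in SPG, *SLC16A1* in Early-SPC, 4 in Late-SPC and 7 in SPT.

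**Figure D1:**
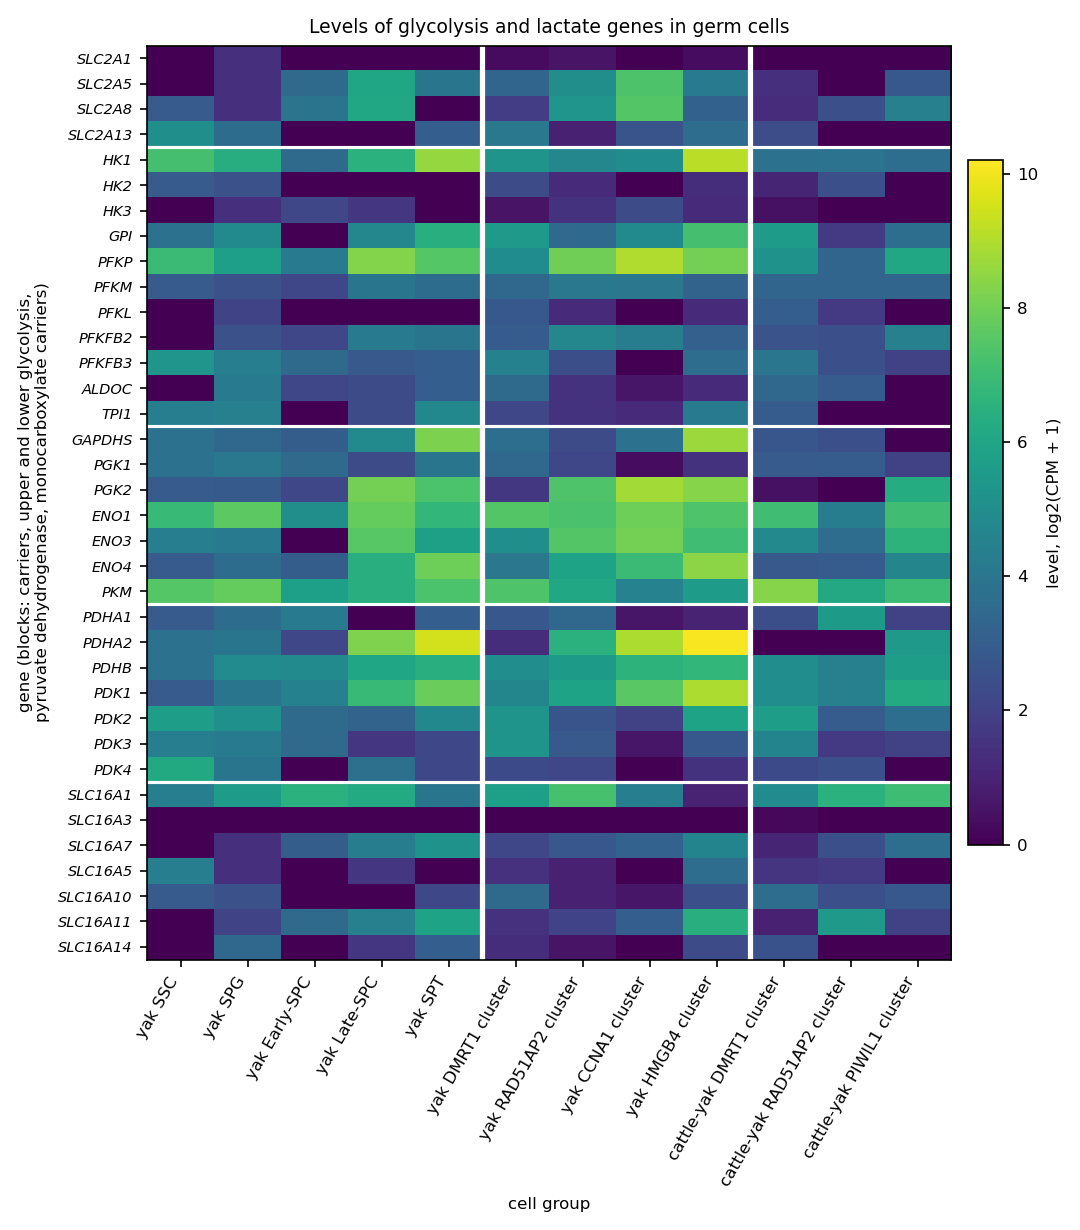
Level of pathway genes (rows, grouped by role) in germ cell groups (columns), as colour on a log2(CPM + 1) scale, for the authors' 5 yak types, the 4 deep yak clusters and the 3 cattle-yak clusters. *PGK2* and *PDHA2* went from 2.16 and 1.51 CPM in the yak *DMRT1* cluster to 437 and 486 in the *CCNA1* cluster, and *GAPDHS* stood out in spermatids.

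Between types, a gene is called past 2-fold when its log2 ratio, with 1 CPM added to each side, reaches 1 in either direction, among features with at least 50 counts in the pair. From SPG to Late-SPC, 9 of the 53 pathway genes had enough counts: 5 were higher (*PGK2*, *PDHA2*, *ENO3*, *PDK1* and *PFKP*), against 29.7% of all features, and 1 was lower (*PKM*), against 25.8%. The median log2 ratio of these 9 was 2.56, beside -0.01 over all 3640 features. *PGK2* (4 counts in SPG, 128 in Late-SPC), *PDHA2* (9 and 141) and *ENO3* (11 and 90) reached the minimum through Late-SPC. *PDK1* and *PFKP* leaned the same way, with a UMI in 1.65% and 5.97% of SPG and in 18% and 36% of Late-SPC cells. The other 44 genes had too few counts, so neither the median nor the numbers called are read as a change of the whole pathway. The same minimum holds for the steps below, also between the deep clusters, and there too some genes reached it through the side where they were high. *PGK2* had 1 count in Early-SPC, and 10 in the *DMRT1* against 375 in the *RAD51AP2* cluster. The numbers called in those steps are likewise not read as a change of the whole pathway. From Late-SPC to SPT, 11 had enough counts, 4 were higher (*GAPDHS*, *HK1*, *ENO4* and *PDHA2*; background 18.3%) and 2 lower (*ENO1* and *ENO3*; background 30.4%). From SPG to Early-SPC, 3 of 4 (*ENO1*, *HK1*, *PKM*) were lower (background 29.1%) and none higher (28.7%), and from Early-SPC to Late-SPC 6 of 8 were higher (37.7%) and none lower (29.5%). Early-SPC cells carried less somatic RNA than SPG: a set of 79 markers of somatic types summed to 1296 CPM in Early-SPC, 3678 in Late-SPC, 6561 in SPT and 8538 in SPG, and its part in these ratios was not tested. In the deep clusters the same set summed to only 996 to 2411 CPM.

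With the deep clusters, more genes could be compared. From the *DMRT1* to the *RAD51AP2* cluster, 10 of 24 were higher (background 19.2%) and 10 lower (26%). From the *RAD51AP2* to the *CCNA1* cluster 9 of 17 were higher (21.5%) and 2 lower (30.8%), and from the *CCNA1* to the *HMGB4* cluster 11 of 22 were higher (29.9%) and 4 lower (30.1%). The median log2 ratio of the pathway genes with enough counts was 0.14, 1.03 and 1.04 over these steps. Over all features with enough counts it was -0.19, -0.19 and -0.25. Over the whole span, 14 of 27 genes were higher in the *HMGB4* than in the *DMRT1* cluster (background 31.3%) and 6 lower (44.3%), and in the published types 6 of 8 were higher in SPT than in SPG (24.2%) and none lower (31.9%).

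Hexose carriers were low in most germ cells, with a peak of *SLC2A5* and *SLC2A8* in late spermatocytes. *SLC2A5*, a fructose carrier, measured 9.08 CPM in the *DMRT1*, 32.1 in the *RAD51AP2*, 162 (149 to 175) in the *CCNA1* and 18.1 in the *HMGB4* cluster. *SLC2A8*, an intracellular hexose carrier, measured 2.60, 39.2, 178 (165 to 192) and 8.01 CPM in the same order. Both were thus past 2-fold on the way up into the *CCNA1* cluster, with log2 ratios of 2.30 and 2.15 over the *RAD51AP2* cluster, and on the way down into spermatids, with -3.09 and -4.31. Of the 78 cells of the *CCNA1* cluster, 73 held UMIs of both carriers. The authors' types gave the same order with fewer counts: *SLC2A8* was at 1.62 CPM in SPG (1 count), 69.3 (47.7 to 97.3) in Late-SPC and 0 in SPT, where a floor of 3 counts equals 11.0 CPM. *SLC2A13*, the proton-coupled inositol carrier, was highest of the deep clusters in the *DMRT1* cluster at 15.8 CPM and fell by 3.15 on the log2 scale into the *RAD51AP2* cluster. *SLC2A1*, the common glucose carrier, did not exceed 1.62 CPM in any yak germ group, and *SLC2A4*, the insulin-responsive carrier, had no UMI in any of them. *SLC2A3* carried no symbol in the gene list.

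At the entry of the pathway, *PFKP* rose into spermatocytes and *HK1* into spermatids. *HK1*, a hexokinase, measured 37.9, 25.4 and 29.9 CPM in the *DMRT1*, *RAD51AP2* and *CCNA1* clusters and 562 (539 to 586) in the *HMGB4* cluster. In the authors' types it was 80.8 CPM in SPG, 10.5 in Early-SPC, 90.3 in Late-SPC and 387 (316 to 468) in SPT, a log2 ratio of 2.09 (1.57 to 2.65) over Late-SPC. *PFKP*, a phosphofructokinase subunit, rose earlier, from 30.1 CPM in the *DMRT1* to 255 in the *RAD51AP2* and 499 (476 to 522) in the *CCNA1* cluster, and stood at 271 in the *HMGB4* cluster. The remaining hexokinases, *HK2* and *HK3*, were at or below 6.53 CPM in every yak germ group, and *PFKL* and *PFKM* at or below 16.1. *PFKFB3*, which makes the activator fructose 2,6-bisphosphate, was lower in the *RAD51AP2* than in the *DMRT1* cluster (4.46 against 21.2 CPM), while its relative *PFKFB2* was higher (25.4 against 6.92). *GPI*, the isomerase between both steps, was also highest in the *HMGB4* cluster, with 44.1, 10.3, 28.6 and 144 CPM over the 4 deep clusters. Unlike *HK1*, it also passed 2-fold on the way down into the *RAD51AP2* cluster and up into the *CCNA1* cluster.

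In lower glycolysis the somatic and testis forms of phosphoglycerate kinase changed places. *PGK2* measured 6.46 CPM (1.76 to 16.6) in SPG, 3.51 in Early-SPC, 269 (224 to 320) in Late-SPC and 158 (115 to 213) in SPT. In the deep clusters it measured 2.16, 167 (151 to 185), 437 (417 to 459) and 322 (304 to 340) CPM. *PGK1* went the other way, at 9.52, 3.57, 0.267 and 1.81 CPM. Of the UMIs of both genes, *PGK2* took 10 of 54 in the *DMRT1* cluster (18.5%, exact binomial interval 9.25 to 31.4%), 375 of 383 in the *RAD51AP2* cluster (97.9%, 95.9 to 99.1%), 1637 of 1638 in the *CCNA1* cluster and 1245 of 1252 in the *HMGB4* cluster (99.4%). Since the capture of each gene depends on its own 3′ end, only the change of this share between groups is read, not its size. In yak T/NK-like cells, lymphocytes that should lack *PGK2*, the share was 21.5% (35 of 163, 15.4 to 28.6%). The share in the *DMRT1* cluster is therefore not told apart from the level in such cells.

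Few single cells of the *RAD51AP2* cluster held *PGK1*, so whether *PGK1* and *PGK2* shared cells is not read from it. Of its 99 cells, 35 held UMIs of *PGK2* and not *PGK1*, 7 of *PGK1* and not *PGK2*, 1 of both and 56 of neither. Among the 36 cells with *PGK2* the median was 6 UMIs and the highest 54, so the gene was high in a fraction of the cluster. In the *CCNA1* cluster all 78 cells held *PGK2*, with a median of 16 UMIs, and 1 held *PGK1*.

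*GAPDHS*, the sperm form of glyceraldehyde-3-phosphate dehydrogenase, appeared a step later than *PGK2*. It measured 11.9, 4.01, 13.1 (9.69 to 17.3) and 410 (390 to 431) CPM over the 4 deep clusters, a log2 ratio of 4.87 (4.56 to 5.41) in the *HMGB4* over the *CCNA1* cluster. In the authors' types it was 9.70 CPM in SPG, 27.3 in Late-SPC and 287 (227 to 358) in SPT. In the *HMGB4* cluster 146 of 165 cells held UMIs of both *GAPDHS* and *HK1*. *TPI1*, the triose phosphate isomerase, took the same step at a lower level, from 1.34 to 16.8 CPM (log2 ratio 2.93).

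The enolases split by stage. *ENO4*, a sperm-associated enolase, climbed through every deep cluster, at 15.6, 58.9, 121 and 347 (329 to 366) CPM. *ENO3*, the muscle form, peaked in the *CCNA1* cluster, at 32.9, 175, 266 (250 to 283) and 133 CPM. *ENO1*, the common form, stayed between 152 and 243 CPM and passed 2-fold in none of these steps. In the authors' types *ENO1* was 218 CPM in Late-SPC and 107 in SPT, a log2 ratio of -1.03 (-1.68 to -0.43), and *ENO3* was 189 and 55.2 CPM. The *ENO3* ratio of -1.76 became 0.04 when the shallow cells were typed by clustering in place of the authors' table. *PKM*, the pyruvate kinase of most tissues, was highest at the start, at 165 (153 to 177), 68.2, 22.2 and 48.3 CPM in the deep clusters, and *PKLR* did not exceed 2.68 CPM there. *ALDOC*, the brain-type aldolase, fell by 2.06 on the log2 scale from the *DMRT1* cluster (10.6 CPM) to the *RAD51AP2* cluster (1.78).

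**Figure D2:**
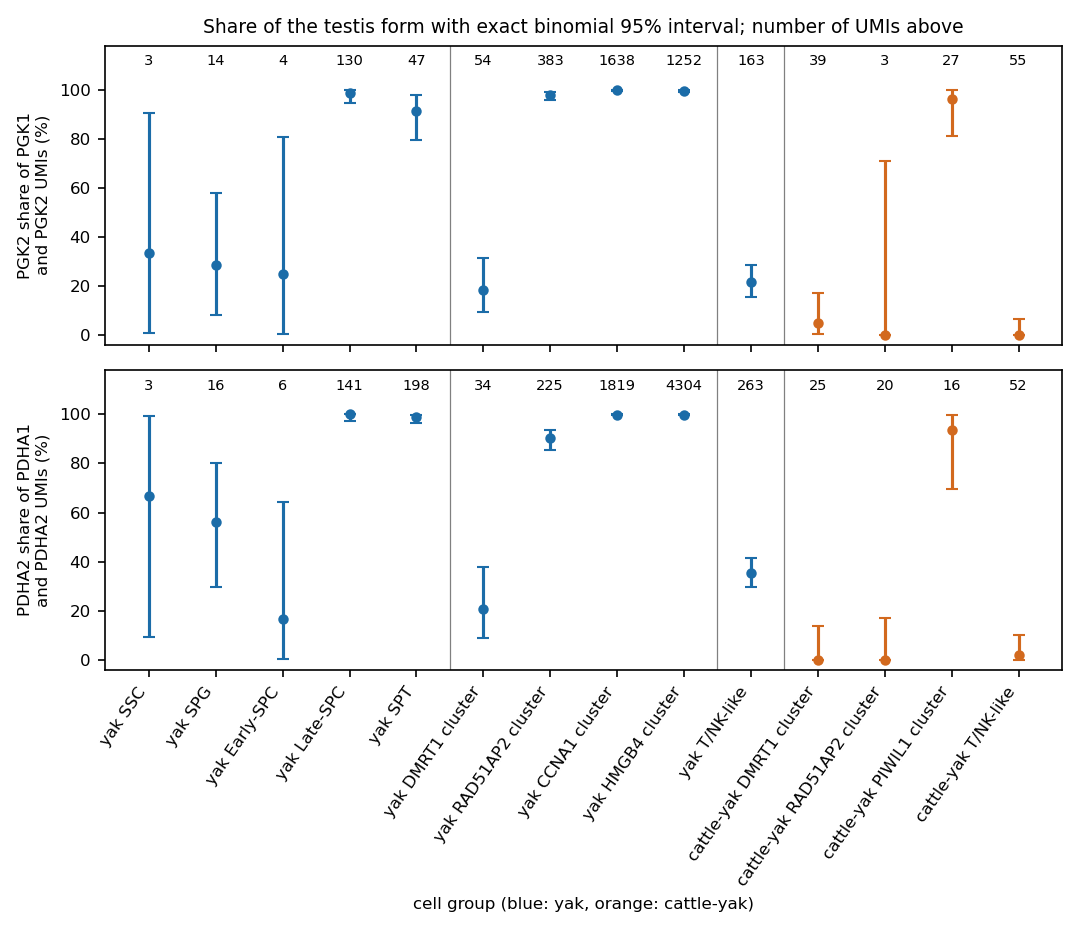
Share (%) of the summed *PGK1* and *PGK2* UMIs that fell on *PGK2*, and of *PDHA1* and *PDHA2* UMIs that fell on *PDHA2*. Columns are the germ groups and the T/NK-like cells of both libraries. Bars are exact binomial 95% intervals and the number of UMIs stands above each point. In the yak the *PGK2* share was 18.5% in the *DMRT1* cluster, at least 97.9% in the 3 later clusters and 21.5% in T/NK-like cells.

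At the mitochondrial gate, the share of *PDHA2* over the X-linked *PDHA1* rose in the same clusters. The level of *PDHA1* itself fell only from the *RAD51AP2* to the *CCNA1* cluster. *PDHA2* measured 14.5 CPM in SPG, 3.51 in Early-SPC, 296 (249 to 349) in Late-SPC and 722 (624 to 830) in SPT, and 1.51, 90.5, 486 and 1111 (1078 to 1145) CPM in the deep clusters. *PDHA1* measured 5.84, 9.81, 0.535 and 1.03 CPM there. The *PDHA2* share of their UMIs was 20.6% (8.70 to 37.9%) in the *DMRT1* cluster, 90.2% (85.6 to 93.8%) in the *RAD51AP2* cluster and 99.9% in both later ones. It was 35.4% (29.6 to 41.5%) in yak T/NK-like cells. In the *RAD51AP2* cluster *PGK2* was found with *PDHA2* in 25 cells, alone in 11, and *PDHA2* without *PGK2* in 5; in the *CCNA1* cluster 77 of 78 cells held both. *PDHB*, the partner subunit, moved less, from 31.4 CPM in the *DMRT1* to 108 in the *HMGB4* cluster.

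The kinases that switch the complex off were exchanged as well. *PDK1* measured 24.9, 58.9, 191 and 488 (466 to 510) CPM over the deep clusters. *PDK3* ran against it, at 38.3 (32.9 to 44.4), 6.24, 0.535 and 5.94 CPM, while *PDK2* was 37.9, 5.35, 2.94 and 60.2 CPM. *PDK4*, the kinase of the fasting response, stayed at or below 3.90 CPM in the deep clusters. It was 71.9 CPM (11 counts) in the authors' SSC, whose 79 somatic markers summed to 4690 CPM.

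Among the deep clusters, the carrier *SLC16A1* (MCT1) peaked in the *RAD51AP2* cluster, which held early and late spermatocyte markers. Some other monocarboxylate carriers were highest in spermatids. *SLC16A1* measured 53.2, 148 (132 to 164), 19.8 and 1.03 CPM in the deep clusters, and 48.5, 91.3, 73.5 and 14.7 CPM in SPG, Early-SPC, Late-SPC and SPT. *SLC16A7* (MCT2, a carrier with high affinity for lactate and pyruvate) measured 3.46, 5.80, 8.28 and 23.5 (18.9 to 28.9) CPM. *SLC16A11* measured 1.73, 3.12, 7.22 and 86.6 (77.5 to 96.4) CPM, and 58.9 in the authors' SPT. *SLC16A7* and *SLC16A11* rose past 2-fold from the *CCNA1* to the *HMGB4* cluster, with log2 ratios of 1.40 and 3.41, while *SLC16A1* fell by 3.35. *SLC16A5* measured 1.73, 0.892, 0 and 11.4 (8.26 to 15.3) CPM, with too few counts for that step, and was past 2-fold in the *HMGB4* over the *DMRT1* cluster (log2 ratio 2.18). *SLC16A3* (MCT4, the carrier of lactate export in glycolytic cells) had no UMI in any yak germ group. *SLC16A10*, an aromatic amino acid carrier, was highest of the deep clusters in the *DMRT1* cluster at 10.4 CPM.

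**Figure D3:**
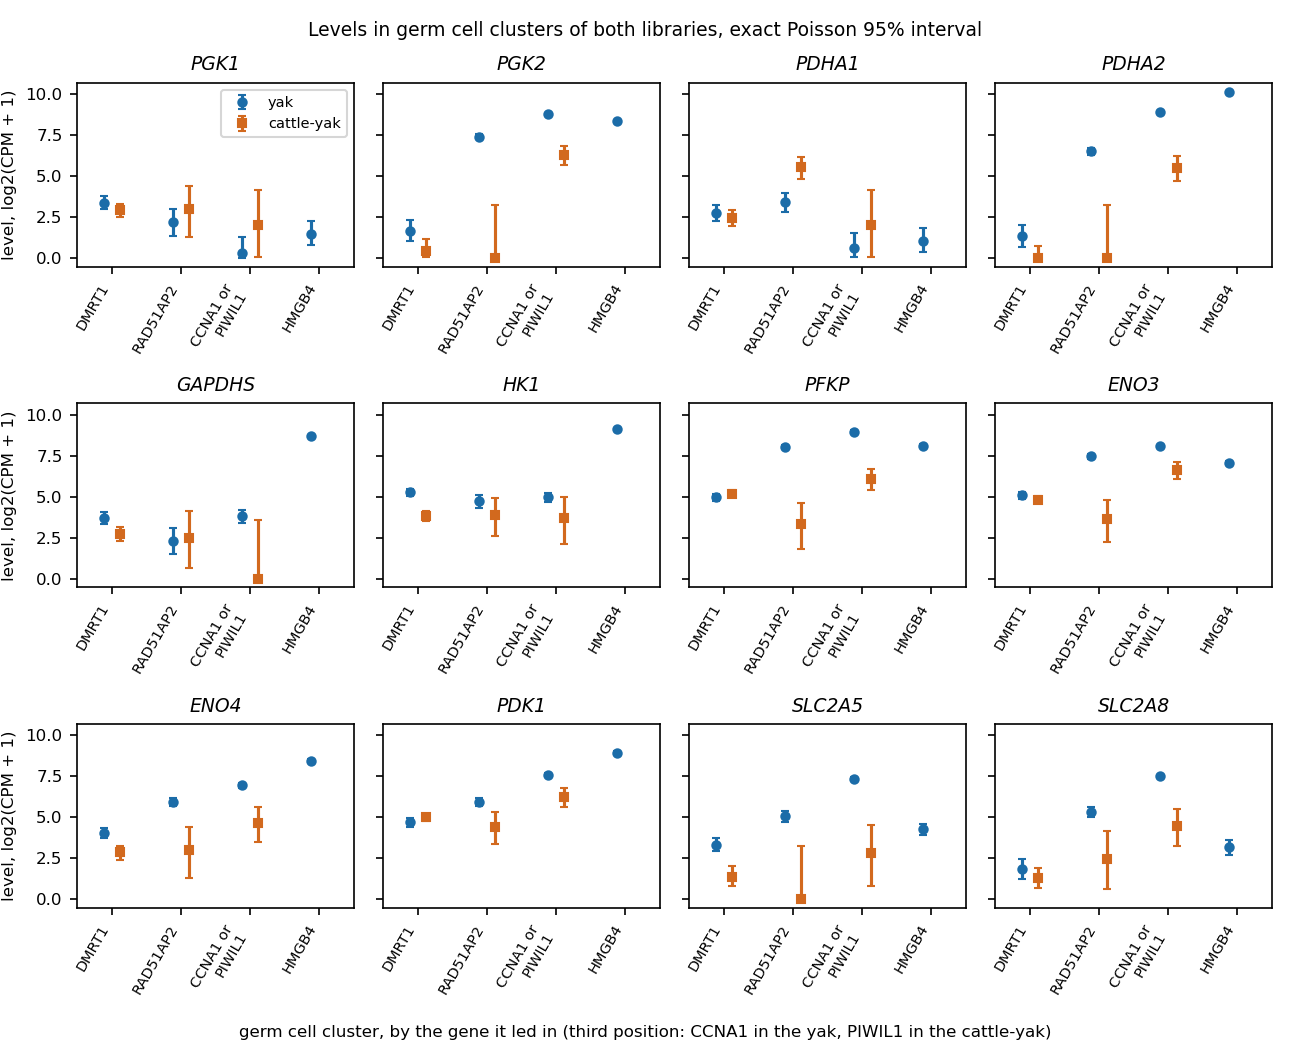
Level, as log2(CPM + 1), of 12 pathway genes in the deep germ clusters of the yak (blue circles) and the germ clusters of the cattle-yak (orange squares). Points are summed counts and bars exact Poisson 95% intervals. The yak *CCNA1* and cattle-yak *PIWIL1* clusters share a place on the horizontal axis but were not matched in stage or depth. They had 12 and 9 of 12 late spermatocyte markers raised and median UMIs of 36640 and 1411. *GAPDHS* and *HK1* reach 410 and 562 CPM in the yak *HMGB4* cluster, and no cattle-yak cluster exceeds 5.68 and 13.7 CPM.

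Shares of cells with a UMI showed the same order once depth was equal. With each cell thinned to 1000 UMIs, which left out 249 of 486 SPG, 97 of 261 Late-SPC and 126 of 224 SPT, *PGK2* was found in 0 of 237 SPG (which allows a share of cells with a UMI of up to 1.27%, by a floor of 3 counts), 39 of 164 Late-SPC (23.8%, 17.5 to 31%) and 18 of 98 SPT (18.4%). *PDHA2* was found in 21.3% of Late-SPC and 46.9% of SPT, and *GAPDHS* in 3.05% and 21.4%. The unthinned shares were 0.823%, 28% and 14.7% for *PGK2*. T/NK-like cells, lymphocytes that should lack these enzymes, gave 13 of 3502 cells (0.371%) for *PGK2*, 1.06% for *PDHA2* and 0.257% for *GAPDHS*, at a median of 1947 UMIs before thinning against 979.5 in SPG and 1168 in Late-SPC. Thinned shares in the deep clusters were 0, 9.47, 30.8 and 23.6% for *PGK2*, and 17.9% for *SLC2A8* in the *CCNA1* cluster.

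Genes around the pathway were taken from 6 fixed lists. Of the TCA cycle and pyruvate entry genes, 9 of 24 had enough counts from SPG to Late-SPC, 3 were higher and 4 lower (backgrounds for this comparison 29.7% and 25.8%); *IDH3B*, a subunit of isocitrate dehydrogenase, went from 9.70 to 113 CPM, and *FH*, the fumarase, from 74.3 to 12.6. In the *CCNA1* over the *DMRT1* cluster 2 of 20 were higher and 12 lower, with a median log2 ratio of -2.11 (backgrounds over all features 27.7% higher and 45.3% lower, median -0.65). In that same comparison 10 of 23 glycolysis and transport genes were higher and 8 lower, with a median of 0.44. Of the pentose phosphate genes, none of 3 was higher and 2 were lower from SPG to Late-SPC, led by *TKTL1*, a transketolase-like gene, at 419 and 14.7 CPM. The list of gluconeogenesis, polyol and glycogen genes gave 2 of 2 higher, *SORD*, the sorbitol dehydrogenase that yields fructose, from 25.9 to 317 CPM and *G6PC3* from 53.3 to 185. In the step to spermatids *FBP2*, a fructose bisphosphatase, went from 3.74 CPM in the *CCNA1* to 592 in the *HMGB4* cluster, and from 14.7 in Late-SPC to 364 in SPT. Its list as a whole gave 3 of 5 higher and 2 lower between those clusters (backgrounds 29.9% and 30.1%), and 1 of 3 higher and 2 lower between those types (18.3% and 30.4%), where *G6PC3* went from 185 to 51.5 CPM. Of the testis forms of respiratory genes, 1 of 3 was higher in Late-SPC, *COX7B2*, from 42.0 to 420 CPM. Of the 8 genes of the hypoxia-inducible factor axis, only *EPAS1* had enough counts from SPG to Late-SPC and did not pass 2-fold (100 and 54.6 CPM). In the deep clusters 6 of them had enough counts. None was higher and 4 were lower in the *CCNA1* over the *DMRT1* cluster, with a median of -2.06, and 1 was higher and 5 lower in the *HMGB4* over the *DMRT1* cluster, with a median of -2.67 (backgrounds 31.3% and 44.3%). Of the MCT partner proteins only *EMB* was annotated, without enough counts in that comparison.

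In the cattle-yak, the stages with high *GAPDHS* and *HK1* were not found, and the early stages could be set beside those of the yak. In the 3 cattle-yak clusters, in the order *DMRT1*, *RAD51AP2* and *PIWIL1*, *PGK2* measured 0.355, 0 and 78.1 (51.0 to 114) CPM and *PDHA2* 0, 0 and 45.0 (25.2 to 74.3) CPM. In the *PIWIL1* cluster *PGK2* took 26 of 27 and *PDHA2* 15 of 16 UMIs of their pairs, in 11 and 5 of 48 cells. *PDHA1* measured 4.44, 45.6 (27.9 to 70.5) and 3.00 CPM and was thus highest in the *RAD51AP2* cluster. *GAPDHS* measured 5.68, 4.56 and 0 CPM, and *HK1* 13.3, 13.7 and 12 CPM.

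From the cattle-yak *DMRT1* to the *RAD51AP2* cluster, 1 of 15 pathway genes was higher (*SLC16A1*, 29.5 and 91.3 CPM; background 17.5%) and 9 lower (32.1%), among them *PKM* (321 and 70.7 CPM), *ENO1* (135 and 18.3) and *PFKP* (35.3 and 9.13). *SLC16A11* was found in 14 of the 48 cells of the *RAD51AP2* cluster, at 43.4 CPM (26.1 to 67.7) against 0.888 in the *DMRT1* cluster, below the minimum of 50 counts. In the *PIWIL1* over the *DMRT1* cluster 3 were higher (*ENO3*, *PDK1* and *SLC16A1*, background 18.7%) and 6 lower (32.3%). These 3 were found in 10, 10 and 11 of the 48 *PIWIL1* cells. The top cell of each gene held 34.4%, 32% and 20.9% of its UMIs, a spread that the Poisson intervals do not cover. *SLC16A1* measured 129 CPM (93.4 to 174) in the *PIWIL1* cluster. Of the cells in these clusters, 41.7% (*RAD51AP2*) and 27.1% (*PIWIL1*) were among the 10% with the highest Scrublet doublet score of their library, against 13.1% and 0% in the yak *RAD51AP2* and *CCNA1* clusters. Without those cells, 1 was higher and 8 lower in the cattle-yak *RAD51AP2* cluster, where 28 cells were left, and 5 higher and 6 lower in the *PIWIL1* cluster. Their part in these values was not otherwise tested.

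Of 12 late spermatocyte markers, 0 were raised in the yak *DMRT1* cluster, counted with the authors' cells, and 6 in that of the cattle-yak. Set side by side, the *DMRT1* clusters of both libraries differed past 2-fold in 2 of 15 pathway genes, both lower in cattle-yak (background 5.47% lower and 2.21% higher). These were *HK1*, at 37.9 CPM in yak and 13.3 in cattle-yak (log2 ratio -1.44, -1.92 to -1.11), and *ENO4*, at 15.6 and 6.21 (-1.20). Both are genes that were highest in spermatids of the yak, and a list of 24 SPT markers summed to 180 CPM in the yak and 81.9 in the cattle-yak *DMRT1* cluster, and the part of free spermatid RNA was not tested. *PKM* stood at 165 and 321 CPM (0.96, 0.84 to 1.09), and *SLC16A1* at 53.2 and 29.5 (-0.83). The *RAD51AP2* clusters differed in 8 of 10 genes, all lower in cattle-yak (background 31.5% lower and 12.6% higher), and the mix of stages differed too, since 12 late spermatocyte markers summed to 5113 CPM in the yak and 326 in the cattle-yak cluster. *PGK2* was at 167 CPM against 0 counts, at least 24.4-fold lower by a floor of 3 counts over the cluster, *PDHA2* at least 13.2-fold lower, and *PFKP* at 255 and 9.13 CPM. *PKM* (68.2 and 70.7 CPM) and *SLC16A1* (148 and 91.3) did not pass 2-fold. Without the cells of high Scrublet score, 6 of 9 genes were lower and none higher in the *RAD51AP2* comparison, with 28 cattle-yak cells left, and 2 of 13 were lower and 1 higher in the *DMRT1* comparison.

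Somatic cells were grouped by clustering and named from marker lists. Some classes held pathway genes at a higher level than the other classes. *PFKFB3* was highest in macrophage-like cells, at 117 CPM in yak and 151 in cattle-yak, against 8.41 to 31.5 in the other yak classes that held it. *SLC16A11* was highest in endothelial cells, at 21.1 and 30.3 CPM in EC-like and 21.2 and 30.9 in lymphatic EC-like cells. *SLC16A7* (MCT2) was highest among the large classes in MC-like cells (named from a list of contractile genes), at 22.0 and 21.3 CPM. Whether MC-like cells are peritubular myoid or other contractile cells was not tested. *SLC16A14*, an orphan carrier, measured 40.5 and 45.4 CPM in a cluster called here by *CYP11A1*, the first enzyme of steroid synthesis, and 14.5 and 30.0 in stromal-like cells. In the *CYP11A1* cluster 11 contractile markers summed to 23514 and 13595 CPM and 3 Leydig cell markers to 399 and 252 CPM in yak and cattle-yak. It is therefore not named as Leydig cells. *HK3*, a hexokinase of blood cells, reached 20.3 CPM in yak macrophage-like and 6.97 in T/NK-like cells.

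**Figure D4:**
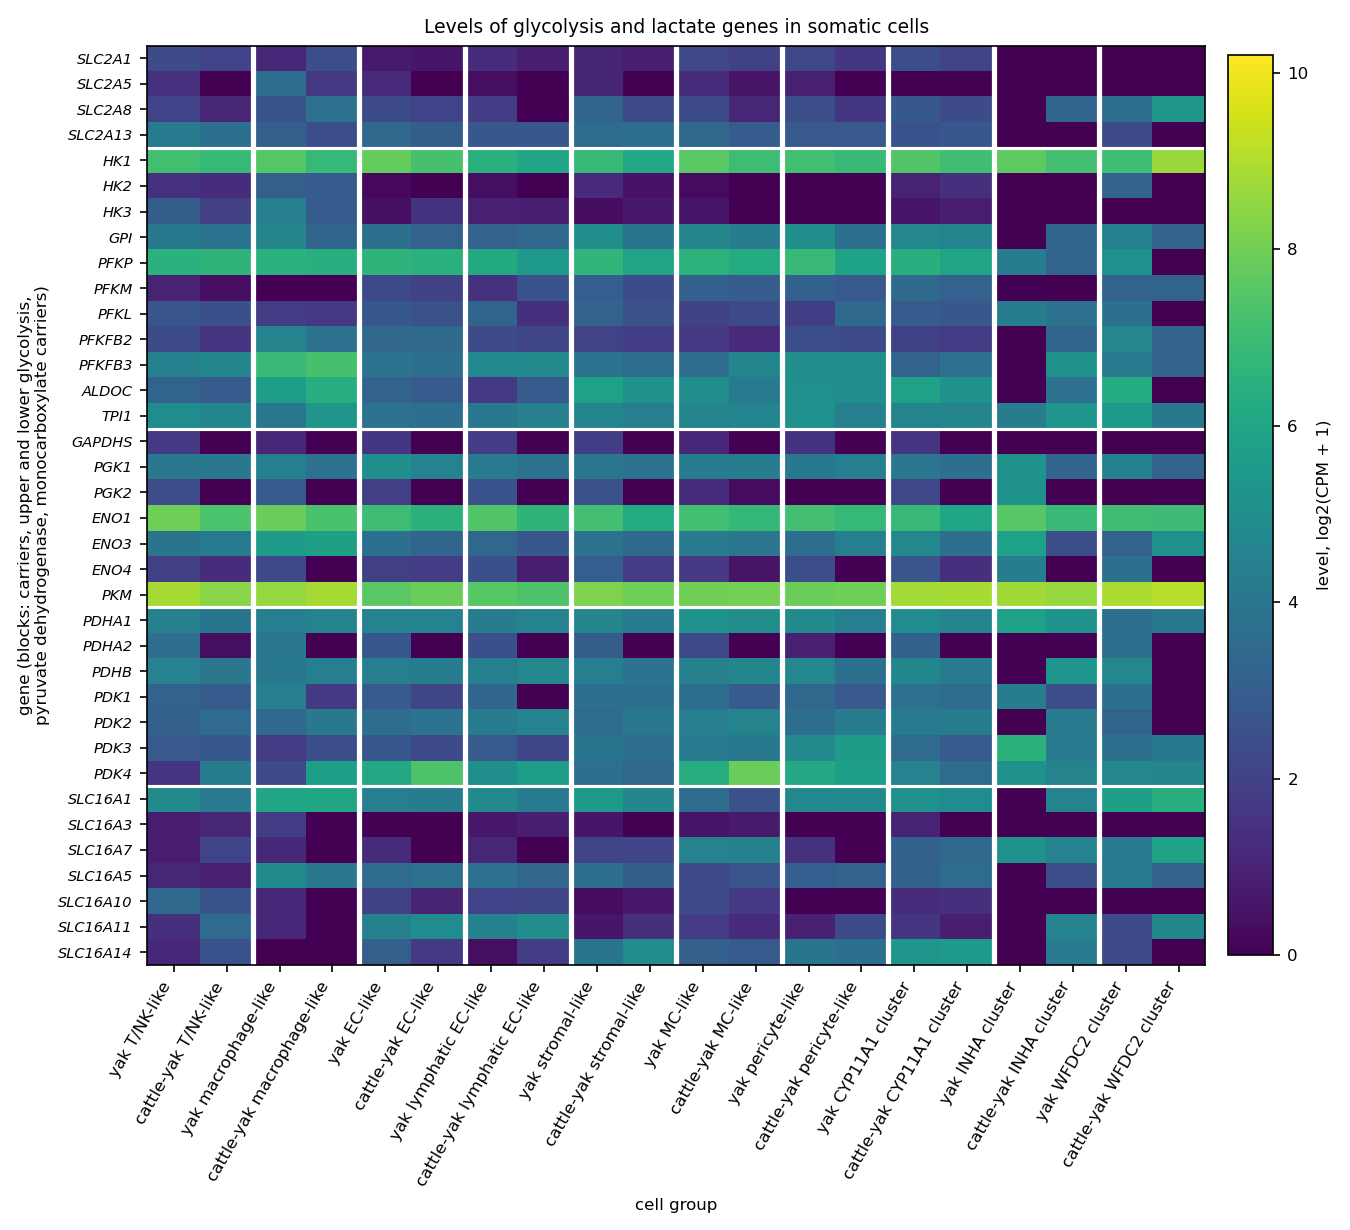
Level of pathway genes (rows) in 10 somatic groups of each library (columns), as colour on a log2(CPM + 1) scale. *PKM* was found in every group of both libraries (160 to 542 CPM), *PFKFB3* was highest in macrophage-like cells and *SLC16A11* in both endothelial classes.

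Sertoli cells, the textbook source of lactate in the testis, could not be named here. The study named a Sertoli cluster of the yak from *SOX9* and *WFDC2* and stained CRYAB in tissue. No cluster met the marker rule for Sertoli cells used here, and 11 of their 20 listed markers had a symbol in the gene list. That rule asked for at least 3 raised markers, with no other list holding more of the 10 leading genes. In the lists used here *WFDC2*, *CRYAB* and *PAX8* counted as epithelial and not as Sertoli markers, so the outcome of the rule depends on the lists. *INHBB* and *DHH* had no UMI in the 2 candidate clusters of either library, while *FSHR* had 1. A cluster with *INHA* (910 CPM in yak, 1063 in cattle-yak) and *SOX9* (390 and 264 CPM) held 32 cells in yak and 102 in cattle-yak. Another with *WFDC2* and *PAX8* held 69 and 31 and was epithelial-like in cattle-yak. Of the 11 markers, 2 were raised in the *INHA* cluster of each library. In the *WFDC2* cluster 4 (yak) and 3 (cattle-yak) were raised, with *SOX9* at 131 and 333 CPM and *INHA* at 575 and 8.33 CPM. In the yak *WFDC2* cluster 3 epithelial markers were raised. *WFDC2* and *PAX8* of the epithelial list and *TF* of the Sertoli list were among its 10 leading genes. *SLC16A3*, the MCT of lactate export, had no UMI in any of these 4 groups, and neither had *SLC2A1*. A floor of 3 counts equals 55.7 (yak) and 13.4 CPM (cattle-yak) in the *INHA* cluster and 12.7 and 25.0 CPM in the *WFDC2* cluster. The 0 counts there cannot be told from the levels of other groups. In the other somatic groups *SLC16A3* did not exceed 2.54 CPM and *SLC2A1* 4.52 CPM. *SLC16A1* measured 0 (floor 55.7) and 22.3 CPM in the *INHA* cluster and 55 and 83.3 in the *WFDC2* cluster. *PKM* was at 427 and 380 CPM and at 487 and 542, against 109 to 448 in the other yak somatic groups and 160 to 464 in those of the cattle-yak, and *HK1* reached 400 CPM in the cattle-yak *WFDC2* cluster against 135 in that of the yak. The 1 UMI of *SLC2A2* in the yak *INHA* cluster equals 18.6 CPM there.

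Between libraries, 8 somatic classes with at least 50 cells in each were compared, among features with at least 100 counts. In no class did more than 2 of the pathway genes pass 2-fold, out of 5 to 18 with enough counts. *PDK4* was higher in cattle-yak EC-like cells, at 70.0 and 161 CPM (log2 ratio 1.19, 1.02 to 1.38), the only one of 16 genes there (background 1.66% higher, 3.29% lower). In MC-like cells *PDK4* was at 81.2 and 236 CPM (1.53, 1.36 to 1.72) and *PFKFB3* at 11.6 and 24.7 (1.03, 0.58 to 1.61), 2 of 16 (1.6% higher, 2.12% lower). In stromal-like cells *SLC16A14* was higher (14.5 and 30.0 CPM, 1.00) and *GPI* lower (31.6 and 14.7, -1.06), 2 of 18 (1.31% higher, 6.49% lower). Measured from the median of all features of that class, *GPI* stood at -0.80 and no longer passed 2-fold.

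*PDK4* did not move the same way in every class: its log2 ratio was 0.62 in lymphatic EC-like and -0.45 (-1.17 to 0.21) in pericyte-like cells. Below the minimum of 100 counts, *PDK4* measured 1.97 and 18.4 CPM in T/NK-like and 3.80 and 49.7 CPM in macrophage-like cells of yak and cattle-yak. In the T/NK-like class 0 of 14 genes passed (5.67% and 4.89%), in macrophage-like 0 of 5 (1.98% and 3.53%), in lymphatic EC-like 0 of 9 (1.25% and 7.67%), in pericyte-like 0 of 5 (1.24% and 5.01%) and in the *CYP11A1* cluster 0 of 7 (1.41% and 4.79%). Stromal-like cells came from 3 clusters in cattle-yak and 1 in yak, and the part of this in its values was not tested.

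Some smaller differences ran in 1 direction across classes and others did not. All 8 classes come from the same 2 libraries and do not repeat the comparison. The share of all features that were lower in all 8 is not given here, so the counts of classes are not read as a result about these genes. *ENO1* was lower in cattle-yak in 8 of 8 classes, by log2 ratios of -0.28 in pericyte-like to -0.90 in stromal-like cells (140 and 74.8 CPM), with 7 intervals below 0. *HK1* was lower in 8 of 8 as well, from -0.23 to -0.70 in macrophage-like cells (184 and 113 CPM). The median of all features was itself lower in cattle-yak, by -0.10 to -0.35. Measured from that median, both genes stayed lower in 8 of 8 classes but by less. *ENO1* then ran from -0.14 to -0.64 and *HK1* from only -0.04 to -0.55. *PFKP* was lower in 7 of 8 classes and 6 of 8 from the median, and *PKM* was higher in 5 of 8 and 6 of 8. *PDK2* was higher in 4 of 4 classes with enough counts (0.19 to 0.54), and *ALDOC* lower in 3 of 3 (-0.59 to -0.79). *SLC16A1* stood at 44.5 and 24.5 CPM in stromal-like cells (-0.83) and at 28.6 and 17.5 in T/NK-like cells (-0.68), and *PGK1* at 33.1 and 22.2 in EC-like cells (-0.56).

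**Figure D5:**
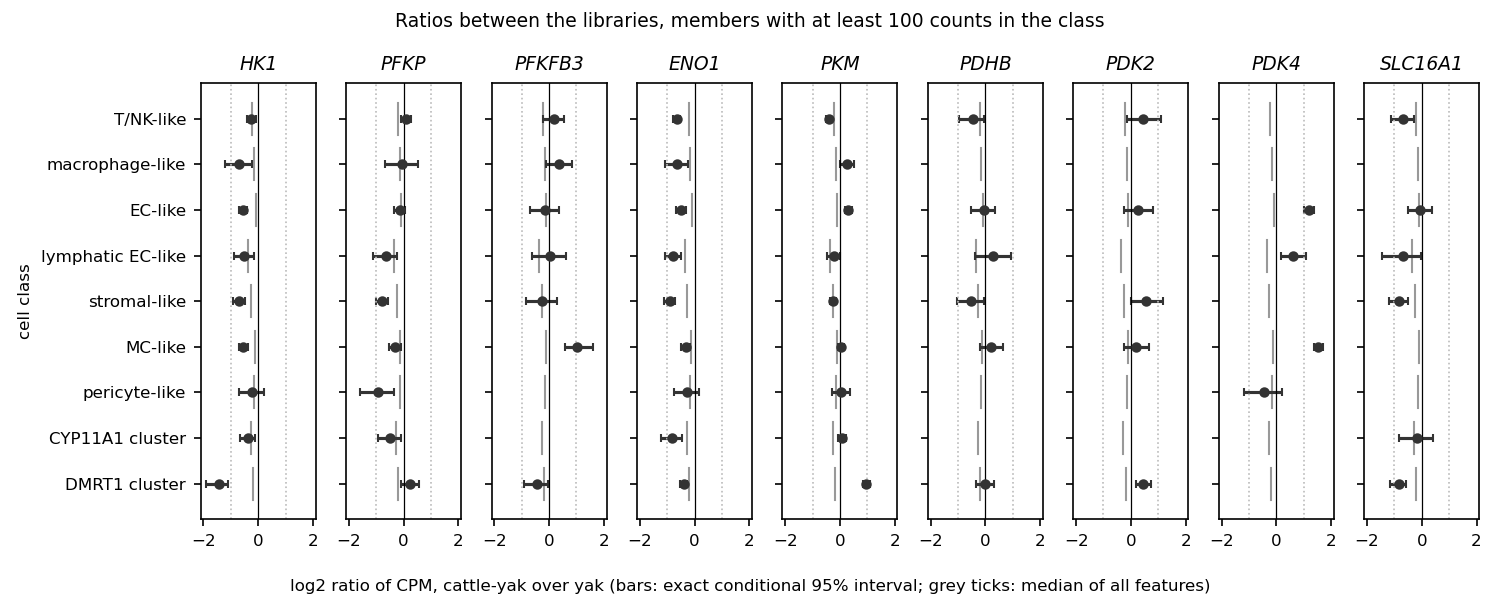
Log2 ratio of cattle-yak over yak CPM for 9 pathway genes in each class, with 95% intervals from the exact binomial split of the counts; grey ticks mark the median of all features of the class. *PDK4* lies at 1.19 in EC-like and 1.53 in MC-like cells, and *ENO1* and *HK1* lie below 0 in every somatic class.

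The testis forms also appeared at low levels in yak cells that should not use them. In yak T/NK-like cells *PGK2* measured 4.31 CPM (35 counts) and *PDHA2* 11.5, beside 131 CPM for the 24 SPT markers, and in cattle-yak T/NK-like cells *PGK2* had 0 counts (at least 5.01-fold lower, floor of 3 counts over the class), beside 18.1 CPM for the SPT markers. In stromal-like cells *PDHA2* measured 6.96 CPM against 0 counts (at least 11.5-fold lower). These levels moved with the spermatid markers of each library, and the part of free RNA in them was not tested. At 2.16 and 1.51 CPM, *PGK2* and *PDHA2* in the yak *DMRT1* cluster were below their levels in T/NK-like cells.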

How the data were processed

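The authors mapped reads to the yak genome BosGru3.0 and deposited raw UMI counts per gene and barcode, made with Cell Ranger (5.0.0 per the file headers, 2.1.1 in the submitters' processing notes). Only these counts were used; the libraries are 1 yak and 1 cattle-yak testis, grouped by their labels. Barcodes with at most 30% mitochondrial UMIs and within 2 SD of the mean UMI and gene numbers were kept (10324 of 11991 and 7092 of 8930); a second set without the upper limits held 11114 and 7620. Yak germ types came from the authors' table of 1127 barcodes. Other classes came from Leiden clustering (scanpy 1.11.5, resolution 1, 2000 variable genes, 30 components) without the pathway genes, named from marker lists; deep clusters left out the authors' cells. Doublets were scored with Scrublet, which called 0 and 251 barcodes and so did not work in the yak library; none were removed.

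Counts were summed per group. Log2 ratios have 1 CPM added to each side, while their intervals come from the exact binomial split of the counts without it. Ratios needed 50 counts between germ groups and 100 between libraries. A fold against 0 counts uses a floor of 3 counts. Counts were also simulated with counting error only, and genes were scored where they kept 50 counts. For Late-SPC over SPG (3562 features), all 175 genes changed 4-fold were called and 7 of 3387 unchanged ones. For the *CCNA1* over the *DMRT1* cluster (9051 features) it was all 187 and 5 of 8864. The simulation held no variation between cells or animals and no free RNA, so it gives no error rate for the calls made here.

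Any of the genes could be named, since a symbol pattern chose them; given in full were the isozyme groups, the lactate carriers and *SLC2A1* to *SLC2A5*, of other carriers those leading a class, and between libraries mainly the 3 largest and 3 smallest ratios of a class. The *INHA*, *WFDC2*, *CYP11A1* and germ clusters were called by genes chosen after their values were seen, and the comparison of the *RAD51AP2* clusters, with 48 cattle-yak cells, was added although below the limit of 50 cells. The genes and lists were chosen with earlier results of these data known. Alternatives tried were other CPM denominators, added constants, count minimums, folds, cell limits, clusterings, germ types, Scrublet cuts and thinning depths. Some items are not reported here.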

Additional observations from a re-analysis of the deposited data

Results flagged for a closer look

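*ENO3* and *PFKP* moved in opposite directions from the *DMRT1* to the *RAD51AP2* cluster in the 2 libraries, and the difference was not tested. For *ENO3* the log2 ratio was 2.38 in the yak and -1.18 in the cattle-yak (5 counts in its *RAD51AP2* cluster), and for *PFKP* it was 3.04 and -1.84 (4 counts there). The *RAD51AP2* clusters were not matched in stage, with 8 (yak, counted with the authors' cells) and 3 of 12 late spermatocyte markers raised. Of their cells, 13.1% and 41.7% were among the 10% with the highest Scrublet scores. The part of either in the difference was not tested.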

How the results depend on the processing

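Each group is 1 library, so the values rest on counting depth, and cells of 1 animal say nothing of its spread. No paired analysis was possible because each group holds 1 sample and no test was made. Of 246 recomputed values for 31 results, 180 stayed the same by set limits, 65 moved and 1 reversed. Among the values other than single gene ratios, 52 of 97 moved. For 11 gene ratios between germ types that were already past 2-fold, 104 values were recomputed. Of these, 103 kept their sign and 101 also stayed past 2-fold. *ENO3* in SPT over Late-SPC turned from -1.76 to 0.03653 with types rebuilt by clustering. All 45 recomputed ratios between libraries kept their sign and 34 stayed past 2-fold. Rebuilding types from the kept cells gave no SPG, so comparisons with SPG have no such value. The deep clusters, and leaving out high Scrublet scores in them, were chosen after seeing the data.

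The summed level of 947 CPM in SPG became 1255 with mitochondrial and rRNA features out of the denominator, 842.3 with types rebuilt without upper limits and 841 in the deep cluster. That of 2112 in Late-SPC became 2459, 2767 and 2867, with 2326 for types rebuilt from kept cells and 1980 with every cell weighted equally. That of 2971 in SPT became 3572, 4398 and 4413, with 4162 for types rebuilt from kept cells.

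With at least 20, at least 200 or any counts, 5, 0 or 25 genes passed 2-fold between Early-SPC and SPG (3 as reported), 11, 0 or 26 between Late-SPC and Early-SPC (6), 11, 1 or 24 between SPT and Late-SPC (6) and 11, 0 or 34 between Late-SPC and SPG (6). Deep clusters gave 20, 11, 15 and 18 in that order, and 17, 10, 16 and 16 without high Scrublet scores. Rebuilt types gave 10 between Late-SPC and Early-SPC. SPT against Late-SPC gave 10 at a log2 ratio of 0.5 and 2 at 2, and split 5 higher and 1 lower (4 and 2 as reported) without mitochondrial and rRNA features. Between libraries, 5 of 90 class and gene pairs passed (4 higher, 1 lower): 13 (6 and 7) at 50 counts, 3 at 200, 33 (8 and 25) at a log2 ratio of 0.5 and 0 at 2. Without mitochondrial and rRNA features, or measured from the median of all features, it was 4 higher and 0 lower, and without upper limits 3 and 2.

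The *PGK2* share was 98.46% in Late-SPC and 99.94% in the *CCNA1* cluster; in SPT it was 91.49%, against 98.67% and 99.38% with rebuilt types (within and without the limits) and 99.44% in the *HMGB4* cluster. The *PDHA2* share in SPT was 98.99%, against 100%, 99.91% and 99.91%. Thinned to 500 and 2000 UMIs, *PGK2* was found in 12.26% and 42.37% of Late-SPC, *PDHA2* in 28.57% and 78.26% of SPT and *GAPDHS* in 10.71% and 56.52% of SPT. The cause of these moves was not tested.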

Other observations

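The rarer genes of the set are given here as values, several of them on few counts. *SLC16A5* was highest in macrophage-like cells, at 27.9 CPM in yak (22 counts) and 15.8 in cattle-yak (7 counts). Cattle-yak EC-like cells held 50 counts of it among 3830827 UMIs. *SLC16A13* reached 8.53 CPM (33 counts) in the yak *HMGB4* cluster. *SLC2A9*, a urate carrier, was highest in lymphatic EC-like cells, at 7.83 CPM in yak (27 counts) and 5.01 in cattle-yak (6 counts). The 6 cattle-yak counts, among 1197786 UMIs, stand beside 17 counts among the 3830827 UMIs of EC-like cells and do not set the classes apart. *SLC2A12* was highest of the large classes in MC-like cells, at 6.91 (28 counts) and 9.5 CPM (42 counts). *ENO2*, the neuronal enolase, reached 6.92 CPM (14 counts) in the yak *CYP11A1* cluster and 1.65 (2 counts) in that of the cattle-yak. *LDHD*, the D-lactate dehydrogenase and the only lactate dehydrogenase with a symbol here, had no UMI in any germ group of either library. *PFKFB1* had 1 UMI in all yak groups and none in cattle-yak. *PFKFB4*, *SLC2A6*, *SLC2A10*, *SLC16A4*, *SLC16A6*, *SLC16A8* and *SLC16A12* had at most 23 counts in any group.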
